A study of Mus musculus with 4 samples.

Results

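The 8 genes described here, IL8 (also called CXCL8), CXCL1, CXCL2, CXCL3, CXCL5, CXCL6, CXCL10 and CXCL11, encode secreted CXC chemokines. They were taken by gene name from the probes of a 2-colour oligonucleotide array, control spots aside. This gave 12 of 41000 probes, for 8 of 18760 genes with a symbol on the array. RNA came from H460, an established human lung carcinoma cell line, after 4 h with 250 µM farnesol, an isoprenoid alcohol, or with its vehicle dimethyl sulphoxide. Both conditions shared the medium with heat-inactivated serum, and no other agent or genetic change is named. The duplicate experiments, called replicate 1 and replicate 2, each set a farnesol RNA against its matched vehicle RNA on 2 arrays with the dyes exchanged, so that 4 arrays hold 2 replicates. Farnesol RNAs are coded 4H and vehicle RNAs OH (0H on 1 array) in the channel labels, and the codes are not explained there. The reading of 4H as farnesol rests on the authors' deposited table for replicate 1, described further on, and for replicate 2 on the shared code. The design text and that table call the other RNA vehicle, but the code could also be read as 0 h. In that case each ratio would hold 4 h of culture as well as farnesol, and these cannot be told apart here. Although the organism label says mouse, H460 is a human line and the array's gene names are human. The data come from 1 cell line at 1 dose and 1 time. They are from bulk RNA, in which more cells making a transcript and more transcript per cell cannot be told apart.

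CXC chemokines are small secreted proteins named for the spacing of their first conserved cysteines, and they guide leukocytes through G protein-coupled receptors. IL8, CXCL1, CXCL2, CXCL3, CXCL5 and CXCL6 carry a glutamate-leucine-arginine motif before those cysteines. They act on the receptor CXCR1, CXCR2 or both, attract neutrophils and promote the growth of blood vessels. CXCL10 and CXCL11 lack the motif, are induced by interferons, act on CXCR3 and attract activated T cells. Epithelial and tumour cells are known to switch on the first group through NF-kappaB and AP-1 sites in the promoters, and their mRNAs are short-lived because of AU-rich elements.

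Between 82.7% and 93.0% of the probe spots of a channel were well above background by the scanner software. Across features, which are not independent points, arrays of 1 RNA pair correlated at r = 0.943 and 0.942 and the means of the replicates at r = 0.680. The 6 epithelial markers had vehicle spots between 3.69 (CDH1) and 457 (KRT18) times the local background, averaged over the arrays, with KRT8 at 205, KRT19 at 141, KRT7 at 19.6 and TACSTD1 at 5.93. The 6 leukocyte markers lay between 1.29 and 9.18 times it, with PTPRC at 2.04, the 4 endothelial ones between 1.44 and 6.09, and the 4 fibroblast ones between 1.24 and 3.40. Limma gave no leukocyte or endothelial marker an unadjusted p under 0.05, and of the fibroblast ones only COL1A1 (log2 ratio 0.31). Of the 6 epithelial markers it gave KRT19 (-0.65) and CDH1 (-0.30) one, both lower, as 13.0% of named genes were at that threshold. None of the markers tested was 2-fold different in both replicates. The part of these markers in the results was not tested. No spot of the CXC chemokines was saturated.

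Every value below is a log2 ratio of farnesol over vehicle unless a level is named, and the SD is that of the 2 replicates (n = 2). A gene with several probes is represented by its brightest. Farnesol went with at least 2-fold higher IL8, CXCL1, CXCL2 and CXCL3 in each replicate, on all 4 arrays, which makes 4 of the 7 CXC chemokines that passed the filter on dim probes. By the same rule 149 of all 17874 named genes tested, or 0.834%, were higher. A further 56 genes were lower, and none of these was a CXC chemokine. Centring each array on its median, without loess, made that split 123 higher and 108 lower. The median over the 7 CXC chemokines was 3.24, with 3.82 in replicate 1 and 2.67 in replicate 2, against 0.01 over all named genes. No CXC chemokine passed limma's moderated test with Benjamini-Hochberg adjustment over all 28600 features, whose threshold of 0.05 was reached by 0.0168% of named genes. At an unadjusted p under 0.05, limma took the same 4 CXC chemokines, all higher, where 4.00% of named genes were higher. The absence of adjusted calls depended on the processing. With no offset in the background correction, limma called 3 of the 7 (IL8, CXCL1 and CXCL2), beside 0.308% of named genes. Under median centring it called 2 (IL8 and CXCL1), beside 0.129% of named genes.

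IL8, the main neutrophil chemokine of this group, had the largest ratio of the 8 genes. On the replicate 1 arrays it was 7.45 with farnesol in Cy5 and 7.28 with farnesol in Cy3, and on the replicate 2 arrays 6.61 and 6.21. All 4 values lay above 6, and those of replicate 1 were the higher ones. The mean was 6.89 ± 0.67, or 118-fold (limma, adjusted p = 0.185), which ranked 3 among the named genes. The fold depended on the background correction: it was 203-fold with no offset and 212-fold from the scanner software's processed signals. Its uncorrected spots read 146 and 155 with vehicle in replicate 1 and 127 and 130 in replicate 2, where the local background was between 54.5 and 62. With farnesol they read 18604 and 22375 in replicate 1 and 6149 and 7485 in replicate 2. IL8 therefore started from 2.10 to 2.65 times the background and ended at 112 to 393 times it. The normalized vehicle level was nearly equal in the replicates, at 6.79 and 6.84 on the log2 scale, while the farnesol level was 14.16 and 13.25.

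CXCL2, also known as MIP-2 alpha or GRO beta, had 6.36 and 6.17 on the arrays of replicate 1 and 5.18 and 5.14 on those of replicate 2. The arrays of each pair differed by at most 0.19, and the replicate means were 6.26 and 5.16. Its mean was 5.71 ± 0.78, or 52.4-fold (limma, adjusted p = 0.192), at rank 9. Vehicle spots read between 555 and 918 and farnesol spots between 13065 and 57120. A second probe of CXCL2 gave 4.70 in replicate 1 and 3.85 in replicate 2, a mean of 4.28 ± 0.60 or 19.4-fold, and the mean of both probes was 31.9-fold. In the array's annotation this second probe carries 2 RefSeq accessions, those of CXCL2 and of CXCL3, so its value cannot be given to either gene alone.

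CXCL1, or GRO alpha, a growth factor first described in melanoma, had 4.29 and 4.23 in replicate 1 and 4.78 and 4.49 in replicate 2. These were the closest replicates among the 4 genes at least 2-fold higher, and the only ones of the 4 with the larger ratio in replicate 2. The mean was 4.45 ± 0.27, or 21.8-fold (limma, adjusted p = 0.155), at rank 16. Vehicle spots of CXCL1 read 1649 and 1908 in replicate 1 and 801 and 730 in replicate 2, far above the local background. Its normalized vehicle level was 0.97 higher in replicate 1 than in replicate 2 on the log2 scale, and its farnesol level 0.59 higher. When log ratios were scaled to the same spread on all arrays, the order turned, with 4.76 in replicate 1 and 4.15 in replicate 2.

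CXCL3, or GRO gamma, had probes that did not give the same size. The brighter probe had 4.06 and 3.58 in replicate 1 and 2.86 and 2.47 in replicate 2, a mean of 3.24 ± 0.81 or 9.46-fold (limma, adjusted p = 0.192), at rank 33. The dimmer probe had 6.68 and 6.62 in replicate 1 and 4.70 and 4.54 in replicate 2, a mean of 5.64 ± 1.43 or 49.7-fold. Both probes were higher on every array, and the dimmer exceeded the brighter by 2.83 in replicate 1 and 1.96 in replicate 2. With vehicle the brighter probe read 15.8 to 28.9 times its local background and the dimmer 2.17 to 3.13 times. Both probes carry the same RefSeq accession, and the mean of both was 4.44.

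**Figure D1:**
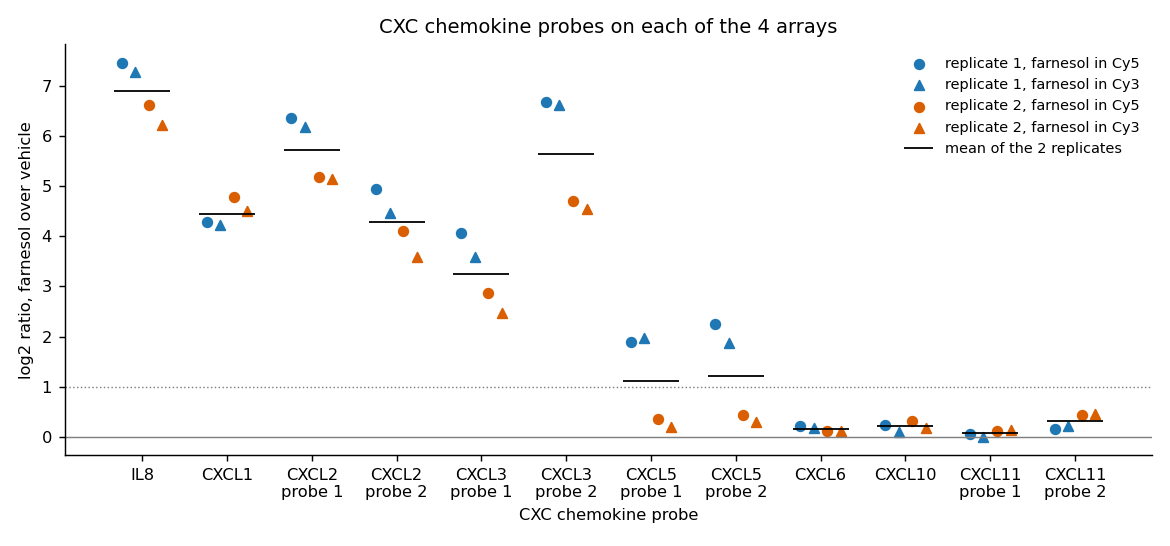
Log2 ratio of farnesol over vehicle (vertical axis) of the 12 CXC chemokine probes on each array; circles and triangles are arrays with farnesol in Cy5 or Cy3, colours are replicates, black bars the mean of the 2 replicates, and the dotted line marks 2-fold. Probe 1 is the brighter of a gene's probes; the points of IL8, CXCL1, CXCL2 and CXCL3 all lie above 2-fold, and those of CXCL5 do so in replicate 1 alone.

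CXCL5, or ENA-78, an epithelial neutrophil attractant, was the only CXC chemokine whose replicates fell on different sides of 2-fold. Its brighter probe had 1.89 and 1.98 on the arrays of replicate 1 but 0.37 and 0.20 on those of replicate 2. The mean of 1.11 ± 1.17 (limma, adjusted p = 0.477) describes neither replicate, with 3.83-fold in replicate 1 and 1.22-fold in replicate 2. The second CXCL5 probe had 2.06 in replicate 1 and 0.38 in replicate 2, so both probes showed the same difference between the experiments. Vehicle spots of the brighter probe were between 2449 and 4253. In replicate 2 its uncorrected farnesol spots, 2053 and 2091, were below the vehicle spots of 2449 and 2704, and the median probe spot was also dimmer with farnesol, at 115 against 158 and 133 against 157. Under median centring the replicate 2 value of CXCL5 was -0.02, so its sign there depended on the normalization.

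CXCL6, or GCP-2, the closest relative of CXCL5, had 0.22 and 0.18 in replicate 1 and 0.12 and 0.12 in replicate 2, a mean of 0.16 ± 0.06 (limma, adjusted p = 0.420). All 4 values were above 0, as they were for 21.0% of named genes. CXCL11, an interferon-induced ligand of CXCR3, had 0.06 and 0.01 in replicate 1 and 0.13 and 0.15 in replicate 2, a mean of 0.09 ± 0.07 (limma, adjusted p = 0.597), and its dimmer probe had 0.33 ± 0.18. CXCL10, the other CXCR3 ligand described here, was not tested, because its farnesol spot was well above background on 2 of 4 arrays, both of replicate 2, and its vehicle spot on 1 of 4. Its ratios were 0.25 and 0.09 in replicate 1 and 0.33 and 0.19 in replicate 2. The 4 probes of CXCL6, CXCL10 and CXCL11 read between 62 and 132 in all spots of both conditions, or 1.11 to 2.30 times the local background. At such brightness a log2 ratio is shrunk towards 0 by the offset of 50 added in the background correction, and with no offset CXCL6 had 0.45 and CXCL11 0.18.

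**Figure D2:**
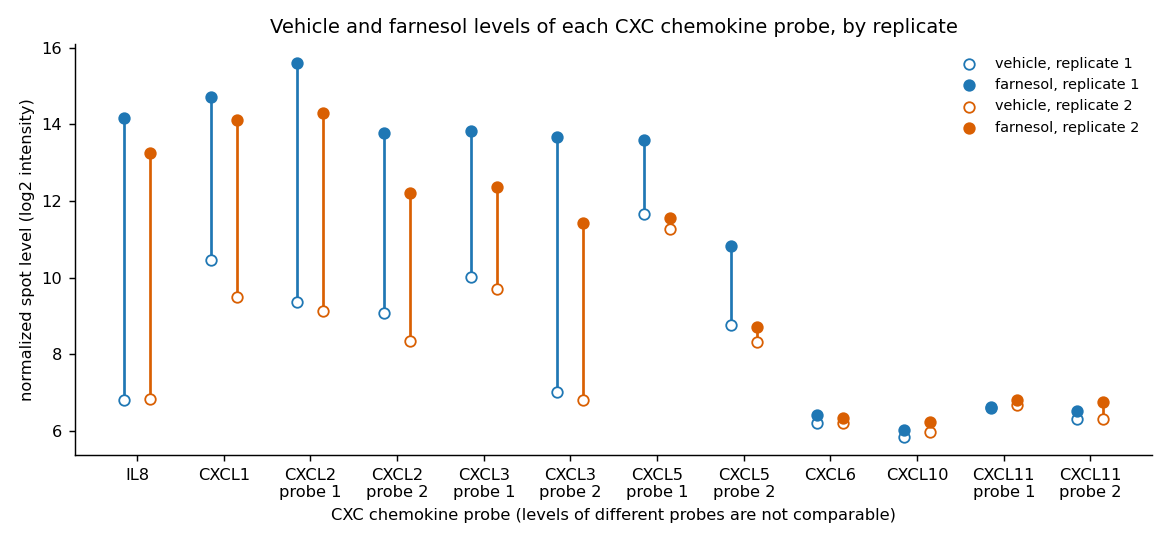
Normalized spot level on the log2 scale (vertical axis) with vehicle (open circles) and farnesol (filled circles) for the 12 CXC chemokine probes, with colours for the 2 replicates; the line between them is the log2 ratio. The farnesol levels of IL8 were 14.16 and 13.25 against vehicle levels of 6.79 and 6.84, while CXCL6, CXCL10 and CXCL11 stayed under a level of 7 in both conditions.

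The difference between the replicates was itself uneven over the 8 genes. It was 1.65 for CXCL5, 1.15 for CXCL3 and 0.95 for IL8, each larger in replicate 1, as was CXCL2. For CXCL1 it was -0.38, for CXCL11 -0.10 and for CXCL6 0.08. The median absolute difference over all named genes, whose median ratio was only 0.01, was 0.13. Genes of large ratio could differ more or less than that. Of those nearest to CXCL2, described below, DDIT3 had 5.57 and 4.77 in the replicates and NR4A1 6.09 and 6.06. The arrays of a pair never differed by more than 0.52 for any of the 12 probes, so for CXCL2, CXCL3, CXCL5 and IL8 the difference lay between the experiments and exceeded that between the dyes. Counted in each replicate alone, 5 of the 7 CXC chemokines were at least 2-fold higher in replicate 1, against 1.81% of named genes, and 4 in replicate 2, against 1.99%. For IL8 and CXCL2 the vehicle levels of the replicates differed by -0.04 and 0.22 on the log2 scale and the farnesol levels by 0.91 and 1.32. The vehicle spots of IL8 were near background, where the offset narrows such a difference. With 1 RNA pair per experiment, the difference between the experiments was not tested.

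**Figure D3:**
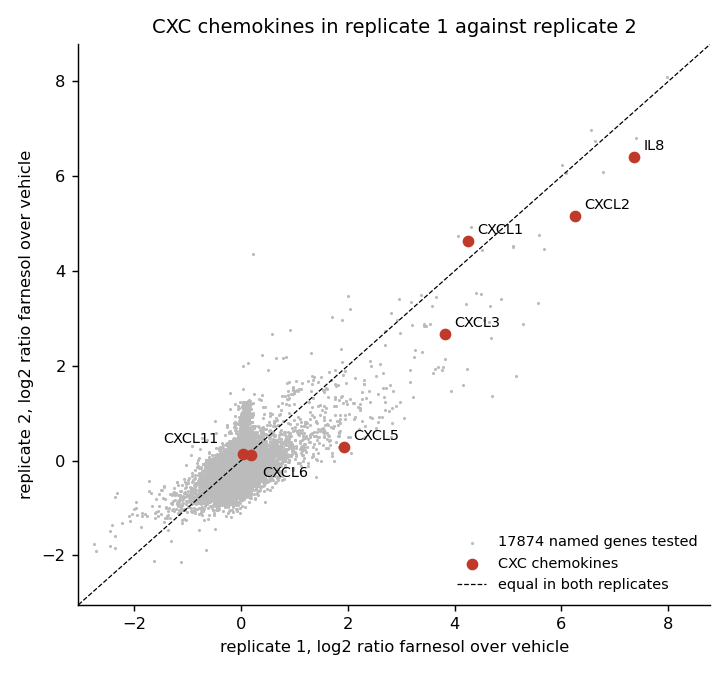
Log2 ratio of farnesol over vehicle in replicate 1 (horizontal axis) and replicate 2 (vertical axis) for the 17874 named genes tested (grey points), with the 7 tested CXC chemokines in red and the dashed line where both replicates are equal. IL8, CXCL2, CXCL3 and CXCL5 lie below the line and CXCL1 above it.

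The named genes nearest to each of the 4 were found by the Euclidean distance of their log2 ratios over the 4 arrays. Nearest to IL8 were ATF3 (7.09 ± 0.42, distance 0.68), a transcription factor switched on by cellular stress, and EGR2 (6.44 ± 0.49, distance 0.95), a zinc finger transcription factor. CXCL2 had DDIT3 (5.17 ± 0.57, distance 1.15), which encodes CHOP, and NR4A1 (6.07 ± 0.02, distance 1.33), an orphan nuclear receptor that limma called (adjusted p = 0.0342). CXCL1 had GADD45B (4.40 ± 0.47, distance 0.34), a stress-inducible growth arrest gene, and SAT (4.47 ± 0.06, distance 0.47), which acetylates polyamines. CXCL3 had the histone genes HIST1H4F (3.16 ± 0.44, distance 0.58) and HIST2H4 (3.16 ± 0.39, distance 0.65). No other CXC chemokine was allowed as a neighbour.

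Ligands of the same family outside the 8 genes did not show such ratios. Of 8 other CXC ligands, 7 were tested, and none was at least 2-fold higher or lower in both replicates. Their median was 0.03, from -0.03 for CXCL13, a B cell attractant, to 0.19 for PF4, platelet factor 4. CXCL12, the ligand of CXCR4, had 0.03 ± 0.00, CXCL16 0.09 ± 0.17, CXCL14 0.10 ± 0.23, PPBP 0.02 ± 0.05 and CXCL9, another CXCR3 ligand, -0.01 ± 0.01. PF4V1 did not pass the filter on dim probes. Limma called none of these 7, and none had an unadjusted p under 0.05. The list's median vehicle spot was 2.12 times the local background, with CXCL12 at 2.03, CXCL13 at 1.31 and CXCL16, the brightest, at 9.62. The vehicle spot of CXCL13 was well above background on 1 of 4 arrays. On dim spots the offset in the background correction shrinks ratios and their SD. Small values of the dim ligands therefore do not show that their expression was unchanged.

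The receptors through which these ligands act had small ratios in the H460 cells. The CXCR1 gene, IL8RA on the array, had -0.05 ± 0.05, and the CXCR2 gene, IL8RB, 0.08 ± 0.00. CXCR3, the receptor of CXCL10 and CXCL11, had 0.23 ± 0.24, CXCR4 0.38 ± 0.28, and CMKOR1, a CXCL12 receptor also called CXCR7, 0.35 ± 0.29. BLR1, the CXCR5 gene, had 0.08 ± 0.05, with -0.11 from its other probe. CXCR6, the CXCL16 receptor, was well above background on 1 of 4 arrays in each condition and was not tested. Limma called none of the 6 tested receptors, none had an unadjusted p under 0.05, and none was at least 2-fold different in both replicates. Vehicle spots of IL8RA and IL8RB lay at 3.88 and 2.13 times the local background.

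Among chemokines of the CC, CX3C and XC families, 1 of 10 tested genes was at least 2-fold higher in both replicates, beside 0.834% of named genes. This was CCL20 (3.08 ± 1.63), with 4.23 in replicate 1 and 1.93 in replicate 2. The list's median was 0.06, and its lowest gene CCL26 had -0.00. Its median vehicle spot was 1.81 times the local background, with CCL20 at 1.78, so a dim vehicle spot limits the ratio of CCL20. Small values of the dim genes do not show that their expression was unchanged. Limma called none of the 10, and 3 had an unadjusted p under 0.05, all higher, where 4.00% of named genes were higher. Of 9 cytokines and receptors that can induce CXC chemokines, 1 was at least 2-fold higher in both replicates, IL1A (2.87 ± 1.81). Its vehicle spot lay at 1.41 times the local background, and was well above background on 3 of 4 arrays. The lowest was the TNF receptor TNFRSF1A (-0.16 ± 0.07), with 0.24 from its other probe. Limma called none of the 9, and 2 had an unadjusted p under 0.05, both higher, beside the same 4.00% of named genes. These counts use each gene's brighter probe. Other probes gave 2.99 for IL6 (0.27 from the brighter), 0.65 for TNF (0.07) and 0.03 for IL1R1 (0.00).

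Of 18 genes of the NF-kappaB pathway, 5 reached 2-fold higher in both replicates, beside 0.834% of named genes, and none 2-fold lower. The median was 0.53, with 0.81 in replicate 1 and 0.25 in replicate 2. The highest was NFKBIA (4.01 ± 0.70), the inhibitor that NF-kappaB itself induces, and the lowest TRAF2 (-0.16 ± 0.06), an adaptor of TNF receptors. Limma called none of the 18, and 8 had an unadjusted p under 0.05, all higher, where 4.00% of named genes were higher. TNFAIP3, counted among the 5, had 2.85 from its brighter probe and 0.82 from its other probe. Of 10 AP-1 and C/EBP factors, 8 reached 2-fold higher in both replicates, beside the same 0.834% of named genes. ATF3 was the highest and FOSL2 (0.68 ± 0.09) the lowest, and 1, JUN (6.69 ± 0.07, adjusted p = 0.0342), rose by limma's test. The other probes of FOSL2 gave 0.98, 1.43 and 1.59, and a second probe of ATF3 gave 2.90. Also counted among the 8, JUNB had 3.42 from its brighter probe and 1.3 from its other. CEBPB had 1.35 from its brighter probe and 0.32 from its other. All 10 had an unadjusted p under 0.05 and were higher, beside the same 4.00% of named genes. Their medians were 2.42 and 2.39 in the replicates.

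Of 14 genes of the interferon pathway, 3 reached 2-fold higher in both replicates, beside 0.834% of named genes, and none 2-fold lower. The median was 0.17. The highest was IFIT2 (2.74 ± 1.04), an interferon-induced RNA-binding protein, with 2.00 in replicate 1 and 3.48 in replicate 2. The other probe of IFIT2 gave 1.84. The lowest was IFNGR1 (-0.48 ± 0.07), a receptor chain for interferon gamma. Limma called none of the 14. At an unadjusted p under 0.05, 6 were higher and 2 lower, where named genes were higher in 4.00% and lower in 13.0%. IRF7, counted among the 6, had 0.95 from its brighter probe and 0.04 from its other. Of 7 proteins that bind AU-rich mRNAs, 1 was at least 2-fold higher and 1 lower in both replicates, beside 0.834% and 0.313% of named genes. Limma called none of the 7. At an unadjusted p under 0.05, 2 were higher and 3 lower, beside the same 4.00% and 13.0% of named genes. ZFP36, or tristetraprolin, which promotes the decay of such mRNAs, had 4.80 ± 0.41, and ELAVL1, or HuR, which stabilizes them, had -1.34 ± 0.36, with -0.64 and -0.23 from its other probes.

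**Figure D4:**
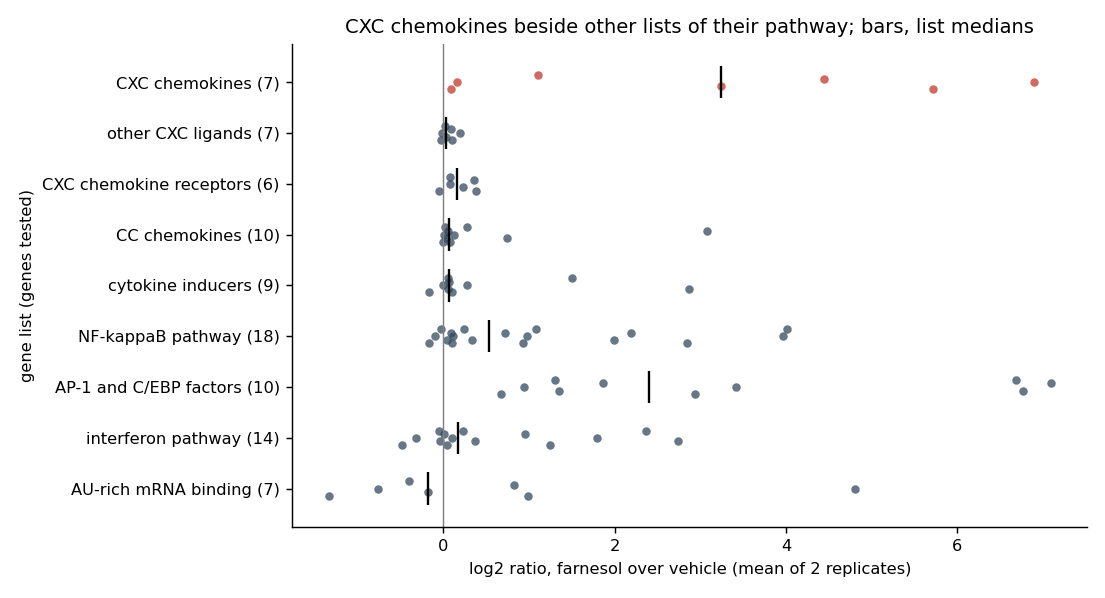
Log2 ratio of farnesol over vehicle (horizontal axis, mean of 2 replicates) of each tested gene (points) in the CXC chemokines, in red, and in 8 other lists, with the number of genes tested in brackets and black bars for list medians. The medians are 3.24 for the CXC chemokines, 0.03 for other CXC ligands and 0.16 for the receptors.

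The authors' deposited table lists a ratio of farnesol over vehicle for 9 of the 12 probes, all above 1. Its header names replicate 1 and defines the ratio as 4 h farnesol over vehicle. With 4H taken as farnesol, the scanner software's log ratio correlated with it across probes at r = 0.9999 in replicate 1 and r = 0.832 in replicate 2. In the authors' deposited table IL8 has a ratio of 275, CXCL1 20.1, CXCL2 83.8 and 28.6, CXCL3 155 for the dimmer and 14.8 for the brighter probe, CXCL5 3.95 and 4.59, and CXCL6 1.49. The corresponding fold changes of replicate 1 computed here were 165 for IL8, 19.1 for CXCL1, 76.7 and 26.0 for CXCL2, and 100.3 and 14.1 for CXCL3. The gap was widest for IL8 and the dimmer CXCL3 probe, whose vehicle spots read at most 3.13 times the local background. CXCL10 and CXCL11 are not among the rows of the authors' deposited table, where no p-value exceeds 0.001.

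**Figure D5:**
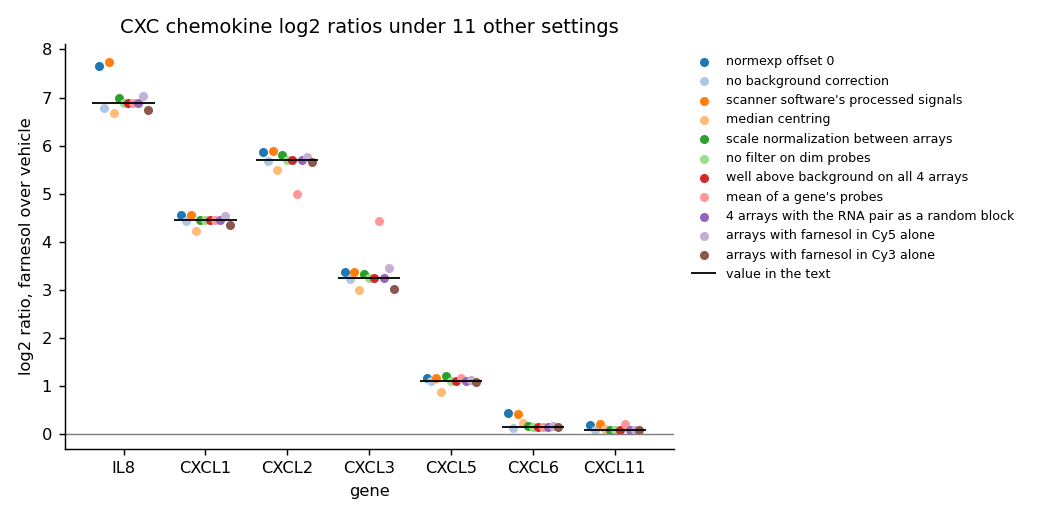
Log2 ratio of farnesol over vehicle (vertical axis) of the 7 tested CXC chemokines under 11 other settings of the processing (coloured points) beside the value in the text (black bars). IL8 ran from 6.67 to 7.73 and CXCL3 from 3.01 to 4.44, the latter when its probes were averaged.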

How the data were processed

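Scans were read with Agilent Feature Extraction 8.1.1.1, per the file headers. For Cy3 and Cy5, the files the authors deposited give each spot's mean intensity with its median local background, neither corrected. They also give processed intensity, which the software had background-subtracted and dye-normalized, and the log10 ratio made from it, per the file headers. Flags of the scanner software mark spots well above background, saturated or outlying. The authors also deposited a linear ratio of farnesol over vehicle with a p-value per probe, in 2 identical copies, so only replicate 1 is covered.

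In R 4.3.3 with limma 3.58.1, background was corrected by normexp (offset 50) and log ratios normalized by loess, with control and outlying spots at weight 0 and then left out. Signs were turned by dye as labelled, and the arrays of a pair averaged. Levels per channel were taken after loess and quantile normalization of the channels' average log2 intensity. The filter on dim probes kept those that, in farnesol or in vehicle, exceeded background by the flag on 1 or more arrays of both replicates. Of several probes of a gene the brightest was used. Limma tested the mean of 2 replicates against 0, two-sided, with 1 residual and 1.81 prior degrees of freedom. On simulated data drawn from limma's own fitted variances, the mean estimates were checked and, for the largest change, the 2-fold rule. Limma's calls were not checked there. The labels call the experiments duplicates without saying that cultures were separate, so p-values rest only on the spread between these samples. Being moderated, they draw on that spread over all 28600 features as well as in the gene itself. The number of arrays limits the precision.

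The members and lists were chosen with earlier results of these data known. By rule, the CXC ligands and receptors, the highest and lowest gene of each other list, and the 2 nearest genes of each CXC chemokine at least 2-fold higher in both replicates are named. JUN, the marker genes and the genes of the last part were named after their values were seen. So were TNF, IL1R1, TNFAIP3, JUNB, CEBPB and IRF7, named for their second probes. DARC was not matched by name. Symbols come from the array files, no human reference was used, and no positions or probe sequences are given. Values of the alternatives follow in the closing section.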

Additional observations from a re-analysis of the deposited data

How the results depend on the processing

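The mean ratios of the 7 tested CXC chemokines were above 0 under all 11 other settings of the full data. The lowest were 0.08 for CXCL11 and 0.13 for CXCL6, from spots near background. In replicate 2, CXCL5 had -0.02 under median centring. The share of named genes above 0 under all settings was not counted. The count at least 2-fold higher in each replicate was 4 throughout, beside 123 to 222 named genes. With no offset, limma called 3 (CXCL1, CXCL2 and IL8) among 55 named genes, against 0 among 3 in the text. Processed signals gave the same 3 among 51. It called 2 under median centring (CXCL1 and IL8; 23 named genes) and 4 with the 4 arrays entered one by one and the RNA pair as a random block (2261 named genes; correlation 0.55). It called 1, CXCL1, from the arrays with farnesol in Cy3 alone (14 named genes) and none from those with farnesol in Cy5 alone (5 named genes). With log ratios scaled between arrays limma called 0 named genes, while 3007 had an unadjusted p under 0.05. By limma, adjusted p of IL8 ran from 0.000271 to 0.225 and of CXCL1 from 0.000111 to 0.225. That of CXCL2 ran from 0.000397 to 0.225 and of CXCL3 from 0.00317 to 0.249. The lowest value of each came from the arrays entered one by one, where dye-swapped arrays of the same RNA pair count separately. Of the other settings, the one with no offset gave the lowest limma adjusted p. These were 0.00955 for IL8, 0.0104 for CXCL1, 0.0190 for CXCL2 and 0.0687 for CXCL3. The median of the CXC chemokines was 4.44 when probes were averaged, which moves CXCL3, and 2.18 without the filter on dim probes, which adds CXCL10 (0.22). Without replicate 1 or without replicate 2, a count needs 1 replicate alone, and 356 or 330 named genes were at least 2-fold higher. Of the CXC chemokines it was then 4 or 5, and no test can be made. Dim vehicle spots limit the ratios of IL8 and of the second CXCL3 probe.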

Other observations

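Single genes picked after their values were seen, and not a fixed list, had the larger ratio in different replicates. CCL20 had 4.23 in replicate 1 and 1.93 in replicate 2, and IL1A, an alarm cytokine, 4.15 and 1.59, the same order as in IL8, CXCL2, CXCL3 and CXCL5. IFIT1 had 1.71 and 3.03, IFIT2 2.00 and 3.48, IFIT3 0.86 and 1.64, and G1P2, the ubiquitin-like ISG15, 1.31 and 2.28, the opposite order. The secreted CXCL1 (4.26 and 4.64) and CCL5 (0.54 and 0.94) also had the larger ratio in replicate 2. No test of this difference was made, since each experiment has 1 RNA pair.

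IL6, a cytokine often induced together with IL8, had 0.27 ± 0.36 from its brighter probe and 2.99 from its other probe.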
